A study of Arabidopsis thaliana with 39 samples.

Results

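WRKY proteins are a plant family of DNA-binding transcription factors, and several of them set when and how fast a leaf senesces. They bind the W-box, a short promoter element that many WRKY genes carry themselves, so the family regulates its own members. Some members promote senescence, others delay it, and a number of them respond to salicylate, jasmonate, wounding or heat as well as to age. The 10 genes described here were taken by name from the 33110 genes of the count table. The choice used no measured value directly, but it was made with earlier results of these data known. They are *WRKY6* (AT1G62300), *WRKY22* (AT4G01250), *WRKY26* (AT5G07100), *WRKY45* (AT3G01970), *WRKY53* (AT4G23810), *WRKY54* (AT2G40750), *WRKY55* (AT2G40740), *WRKY57* (AT1G69310), *WRKY70* (AT3G56400) and *WRKY75* (AT5G13080).

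The study asked what the transcription factor Sulfur Limitation 1 (SLIM1), an EIN3-like factor known from sulfur deficiency, does in well-fed *Arabidopsis thaliana*. Poly(A) RNA from rosettes was sequenced in 39 libraries, with 3 biological replicates in each of 13 groups. Col-0, the wild type, *slim1-cr*, a CRISPR/Cas9 mutant whose deletion takes out the part of *SLIM1* that codes for DNA binding, and the overexpressors *35S::SLIM1 #17* and *35S::SLIM1 #25* were sampled at 30, 37 and 44 days after sowing (DAS), and *EV*, Col-0 transformed with the empty vector, at 30 DAS. Both overexpressors are T2 plants of Col-0 background with a single insert driven by the constitutive 35S promoter, and their seeds were started on hygromycin. All plants grew on soil in long days with no nutrient treatment, and stalks, where present, were taken off a few minutes before the rosettes were frozen. *slim1-cr* is 1 allele, and the overexpressors are 2 lines that were tested separately.

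Sequencing depth was even: the counts of a library summed to between 38.4 M and 46.2 M (median 45.5 M). *SLIM1* reads followed the genotypes. They stood at 18.1 to 22.9 counts scaled to library size, or CPM, in Col-0, 0.669 to 2.59 in *slim1-cr*, where the 3′ part of the gene remains, 141 to 356 in *#17* and 82.3 to 325 in *#25*. At 30, 37 and 44 DAS the group means were 151, 331 and 353 CPM in *#17* and 93.8, 192 and 293 in *#25*. *SLIM1* was called lower in *#25* than in *#17* at 30 and 37 DAS (1.69% and 8.25% of all genes called), and not at 44 DAS. Rosette markers (5 genes of photosynthesis) summed to 8068 to 58888 CPM. The low end was the overexpressors at 44 DAS (8068 to 16690, beside 28270 to 37846 in Col-0). Seed markers stayed at or under 0.4 CPM. Root markers (4 genes) summed to 7.47 to 90.2 CPM, although the root hair gene *RHD6* was at 0 in all libraries of 11 of the 13 groups. At 37 DAS they were at 44.8 to 65.2 CPM in *slim1-cr* and 14.6 to 32.5 in Col-0, with 0 of the 2 genes tested called (5.54% of all genes). Flower organ markers summed to 3.29 to 61.2 CPM for 10 genes and differed between replicates. In *#25* at 44 DAS 2 of the 9 tested were lower than in Col-0 (46.1% of all genes called), and 3 of 10 fell from 37 to 44 DAS (65.8%). The part of these other organs in the results was not tested. In *slim1-cr* replicate 3 had the lowest level of salicylate response genes at each age. On the log2 scale it was at 3.08 beside 5.59 and 5.68 at 30 DAS and at 2.72 beside 4.10 and 4.44 at 44 DAS, where it stood apart, and at 2.79 beside 3.48 and 4.18 at 37 DAS, where the replicates were spread evenly.

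The promoters show how the members differ in the element that WRKY factors bind. The window from 250 bases before to 50 bases after each annotated gene start was searched on both strands for the W-box core TTGAC, for TTGACC or TTGACT, which contain it, and for GAGAC, the core of the sulfur-responsive element SURE. The core TTGAC was found in 7 of the 10 promoters, and in 50.5% of the windows of all 27443 protein-coding genes. TTGACC or TTGACT was found in 5 of 10 (32.4% of all windows) and GAGAC in 3 of 10 (32.8%). The 250 bases upstream of 5 members, from the RefSeq assembly TAIR10.1, are given 5′ to 3′ on the strand of the gene, with each W-box core in capitals (GTCAA is the core on the other strand). *WRKY45* and *WRKY53* are shown because they held the most cores, *WRKY22* because its difference from Col-0 changed most with age while its window held none, and *WRKY54* and *WRKY70* because they varied together in these libraries although only *WRKY70* held a core.
WRKY45, chr3:327413-327662, minus strand: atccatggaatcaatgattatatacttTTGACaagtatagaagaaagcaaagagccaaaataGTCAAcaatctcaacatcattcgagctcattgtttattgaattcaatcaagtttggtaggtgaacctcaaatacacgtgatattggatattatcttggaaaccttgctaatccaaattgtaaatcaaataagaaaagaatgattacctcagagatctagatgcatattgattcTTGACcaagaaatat
WRKY53, chr4:12393983-12394232, minus strand: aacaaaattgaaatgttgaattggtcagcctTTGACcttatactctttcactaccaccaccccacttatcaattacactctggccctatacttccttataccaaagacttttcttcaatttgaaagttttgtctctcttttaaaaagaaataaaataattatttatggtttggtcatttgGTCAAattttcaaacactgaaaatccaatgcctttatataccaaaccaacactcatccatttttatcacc
WRKY22, chr4:524250-524499, minus strand: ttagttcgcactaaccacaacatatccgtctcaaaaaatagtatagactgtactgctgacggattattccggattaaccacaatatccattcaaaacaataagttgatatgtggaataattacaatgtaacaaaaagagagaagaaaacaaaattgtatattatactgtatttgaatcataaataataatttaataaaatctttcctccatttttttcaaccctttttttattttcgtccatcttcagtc
WRKY54, chr2:17002529-17002778, minus strand: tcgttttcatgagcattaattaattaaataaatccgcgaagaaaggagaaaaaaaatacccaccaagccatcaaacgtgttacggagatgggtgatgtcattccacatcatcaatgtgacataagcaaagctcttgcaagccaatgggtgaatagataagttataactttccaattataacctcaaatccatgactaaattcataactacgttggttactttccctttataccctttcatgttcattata
WRKY70, chr3:20910624-20910873, minus strand: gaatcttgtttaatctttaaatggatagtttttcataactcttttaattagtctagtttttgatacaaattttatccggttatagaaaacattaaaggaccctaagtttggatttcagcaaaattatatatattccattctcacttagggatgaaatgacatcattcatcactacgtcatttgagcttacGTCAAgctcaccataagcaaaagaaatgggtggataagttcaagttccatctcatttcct

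Counted from the gene start, the cores of *WRKY45* begin at -223, -188 and -15, those of *WRKY53* at -219 and -70, and the core of *WRKY70* at -60. A core at -57 was found for both *WRKY6* and *WRKY26*, at -234 for *WRKY55* and at -11 for *WRKY75*. GAGAC was found at -223 and -3 in *WRKY22*, at -98 and -2 in *WRKY57* and at -120 in *WRKY53*. These are matches of letters, and binding was not measured.

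On the genome the members are scattered, with 1 exception. *WRKY54* (AT2G40750, chr2:17000419-17002528, minus strand, 3 exons) and *WRKY55* (AT2G40740, chr2:16997078-16999499, plus strand, 3 exons) lie tail to tail, 919 bases apart. Libraries were strand-specific, but how the counting used the strand is not given in the sources used here. The patterns of this pair differed: over the 13 group means of log2(CPM + 0.5) their Pearson r was -0.32, given as a description, since groups share age and genotype.

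**Figure D1:**
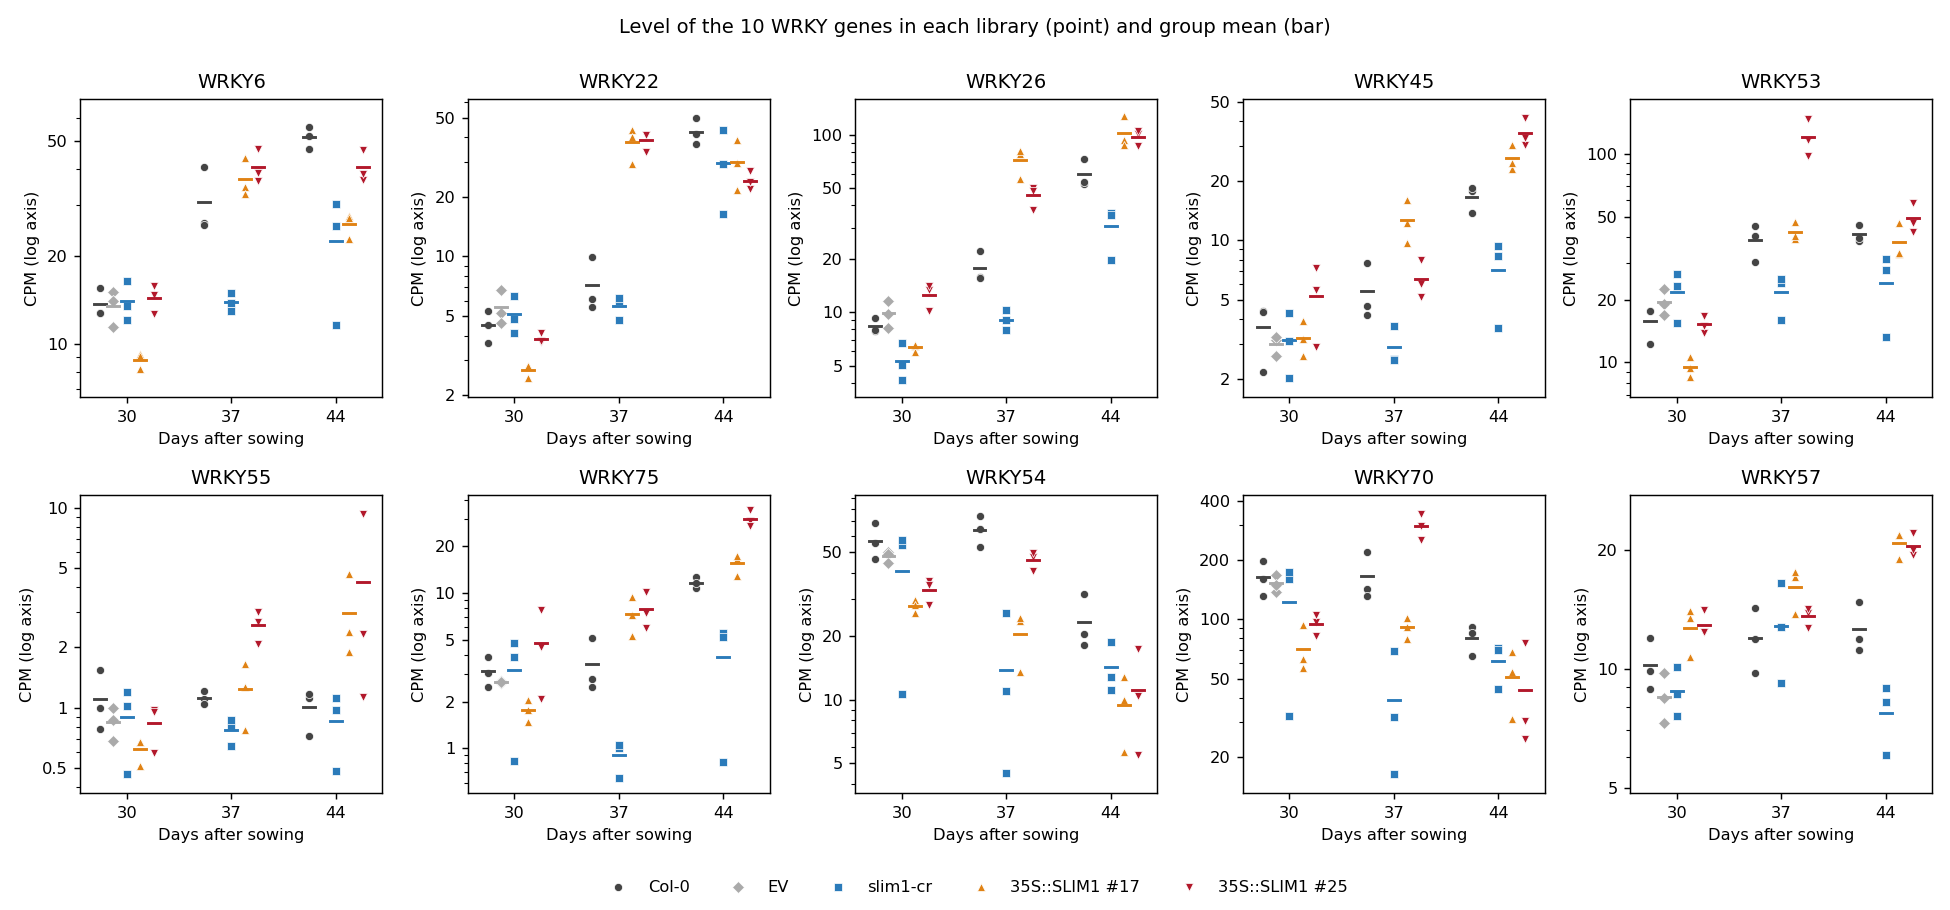
Level of each of the 10 WRKY genes in CPM (log axis) against days after sowing. Each point is 1 library (39 in all), each bar the mean of 3 replicates, and color and shape give the genotype. *WRKY22* stood at 29.2 to 43.5 CPM in both overexpressors at 37 DAS, when the highest Col-0 library was at 9.89.

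All 10 members passed the filter on low counts in every fit, and the lowest count of any member in any library was 22 (*WRKY55*). Per kilobase of exon, the level in Col-0 at 30 DAS was highest for *WRKY70* (111 ± 22.1 CPM per kb, SD, n = 3), followed by *WRKY54* (39.7 ± 7.78) and *WRKY53* (10.5 ± 2.01), and lowest for *WRKY55* (0.92 ± 0.325). At 44 DAS *WRKY70* was at 55 ± 9.37 CPM per kb and *WRKY54* at 16.4 ± 5.01, and *WRKY26* (38 ± 6.99), *WRKY22* (32.1 ± 4.88) and *WRKY53* (27.1 ± 2.61) lay between or above them. Between group means, *WRKY75* spanned the widest range, 33.5-fold, and *WRKY57* the narrowest, 2.7-fold. Rosettes are mixtures of leaves and cell types, so fewer cells with a transcript and less transcript per cell cannot be told apart here.

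Genes are called changed at a Benjamini-Hochberg adjusted p below 0.05 from the quasi-likelihood F test of edgeR, adjusted over all genes tested. Each log2 fold change (log2FC) is given with its SE and rests on 3 replicates per group. All comparisons with Col-0 of a day share its 3 libraries, and whether a biological replicate was 1 plant or a pool is not given in the sources used here, so the p-values measure the spread between these samples. In Col-0, 4 of the 10 members rose between 30 and 37 DAS (35.8% of all 21040 genes were called), and between 37 and 44 DAS 5 rose and 1 fell (51.2% called). Such shares are near that of the whole transcriptome.

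*WRKY53*, an early positive regulator of senescence, rose in Col-0 in the first interval and not in the second. It was at 17.6, 17.6 and 12.3 CPM at 30 DAS, at 40.2, 45.2 and 30.4 at 37 DAS and at 38.3, 45.6 and 39.3 at 44 DAS. Every library of the later days lay above those of 30 DAS, and the 2 later days overlapped. The log2FC was 1.29 (SE 0.24, adjusted p = 0.00023) for the first interval and 0.09 (SE 0.24, adjusted p = 0.771) for the second.

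The overexpressors parted from each other in this gene at 37 DAS. *#25* reached 117, 97.3 and 146 CPM, while *#17* stood at 38.9, 47.1 and 40.4, within or close to the range of Col-0. Against Col-0 the log2FC of *#25* was 1.62 (SE 0.21, adjusted p = 0.000445) and that of *#17* 0.13 (SE 0.21, adjusted p = 0.653). Between the lines it was 1.49 (SE 0.21, adjusted p = 0.00524), and this call held with any 1 library of the 2 lines left out (1.32 to 1.61). At 44 DAS *#25* was at 58.2, 42.2 and 46.6 CPM and overlapped Col-0 (log2FC 0.29, SE 0.26, adjusted p = 0.396). From 37 to 44 DAS the gene fell in *#25* (log2FC -1.29, SE 0.24, adjusted p = 2.97e-05), and the difference from Col-0 itself changed by 1.70 (SE 0.34, adjusted p = 0.000729) from 30 to 37 DAS and by -1.38 (SE 0.34, adjusted p = 0.00131) from 37 to 44 DAS.

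*WRKY22*, which promotes senescence of darkened leaves, showed the largest change of the difference from Col-0 in both lines. Col-0 had 3.68, 4.53 and 5.29 CPM at 30 DAS, 5.58, 9.89 and 6.09 at 37 DAS and 41.3, 49.5 and 36.8 at 44 DAS. *#17* had 29.2, 43.5 and 39.8 CPM at 37 DAS and *#25* had 33.6, 40.7 and 41, so the overexpressors were at the late level of Col-0 already 1 sampling earlier. Against Col-0 at 37 DAS *#17* had a log2FC of 2.39 (SE 0.23, adjusted p = 9.13e-05), and *#25* one of 2.40 (SE 0.23, adjusted p = 6.22e-05). Both held with any 1 library of the compared groups left out (2.23 to 2.69 and 2.24 to 2.71). The smaller rise of Col-0 itself from 30 to 37 DAS (0.67, SE 0.26, adjusted p = 0.0464) was lost without Col-0 replicate 1 or 2 at 30 DAS or replicate 2 at 37 DAS (0.38 to 0.67).

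At 44 DAS the group means of both lines were below that of Col-0, with 38.6, 21.5 and 29.6 CPM in *#17* and 21.9, 23.6 and 26.8 in *#25*. All *#25* libraries lay below those of Col-0, but the test did not pass in either line (for *#17* a log2FC of -0.50, SE 0.30, adjusted p = 0.205, and for *#25* one of -0.79, SE 0.30, adjusted p = 0.0521). Under DESeq2, the *#25* difference passed, as it did in a fit of the 2 groups alone and in 1 fit of all 39 libraries. From 30 to 37 DAS the difference of *#17* from Col-0 changed by 3.12 (SE 0.38, adjusted p = 9.06e-07), and from 37 to 44 DAS by -2.89 (SE 0.36, adjusted p = 6.37e-07). For *#25* the corresponding changes were 2.64 (SE 0.37, adjusted p = 8.43e-06) and -3.24 (SE 0.36, adjusted p = 4.72e-08).

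*WRKY26*, which acts with *WRKY25* and *WRKY33* in heat responses, was higher than in Col-0 in both overexpressors at 37 and at 44 DAS. In Col-0 it rose at both intervals, from 7.84, 7.95 and 9.27 CPM through 15.8, 22.2 and 15.5 to 53, 72.6 and 54. At 37 DAS *#17* had 77.6, 81.2 and 56.6 CPM and *#25* had 37.8, 50.3 and 48.4, all above Col-0 (log2FC 2.02, SE 0.20, adjusted p = 9.5e-05, and 1.33, SE 0.20, adjusted p = 0.000864). At 44 DAS *#17* had 127, 93.4 and 87.5 CPM and *#25* had 86.7, 101 and 105, again above every Col-0 library. The log2FC was then 0.79 (SE 0.23, adjusted p = 0.0193) and 0.74 (SE 0.23, adjusted p = 0.0228). In *#17* the difference from Col-0 changed by 2.41 (SE 0.30, adjusted p = 1.56e-06) from 30 to 37 DAS and by -1.23 (SE 0.29, adjusted p = 0.00168) from 37 to 44 DAS, both kept with any 1 library left out.

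The calls of *WRKY26* at 44 DAS were less firm than those at 37 DAS. The one in *#17* was lost without Col-0 replicate 1 or 3 or *#17* replicate 1 (log2FC 0.60 to 0.72), and the one in *#25* without Col-0 replicate 1 or 3 or *#25* replicate 2 or 3 (0.65 to 0.71). In *slim1-cr* the gene was lower than in Col-0 at each age, with log2FC of -0.65 (SE 0.18, adjusted p = 0.0532) at 30 DAS, -0.99 (SE 0.20, adjusted p = 0.0256) at 37 DAS and -0.96 (SE 0.23, adjusted p = 0.0385) at 44 DAS. At each age all 3 *slim1-cr* libraries lay below all 3 of Col-0, with 6.73, 5.02 and 4.13 CPM at 30 DAS, 7.92, 9.01 and 10.3 at 37 DAS and 36.2, 35.5 and 19.6 at 44 DAS.

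*WRKY6*, linked to senescence and pathogen responses, rose with age in Col-0 from 12.7, 15.6 and 12.7 CPM through 26.1, 40.5 and 25.6 to 55.5, 51.9 and 46.7. In *slim1-cr* it stood at 14.9, 13 and 13.8 CPM at 37 DAS, below all Col-0 libraries, beside 13.5, 16.4 and 12.1 in the mutant at 30 DAS. The log2FC against Col-0 was -1.16 (SE 0.19, adjusted p = 0.0173) at 37 DAS and -1.18 (SE 0.26, adjusted p = 0.0364) at 44 DAS. In *#17* the gene was lower than in Col-0 at 30 DAS and again at 44 DAS, when it stood at 23, 27.5 and 27.1 CPM (log2FC -0.98, SE 0.26, adjusted p = 0.0131), but at 37 DAS it had 34.7, 32.7 and 43.6 CPM and overlapped Col-0. Its difference from Col-0 changed by 0.91 (SE 0.30, adjusted p = 0.0288) and then by -1.26 (SE 0.30, adjusted p = 0.00177) in *#17*.

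*WRKY45*, which acts in gibberellin-mediated senescence, rose in Col-0 from 37 to 44 DAS, from 4.65, 7.72 and 4.21 CPM to 13.8, 17.7 and 18.3 (log2FC 1.59, SE 0.33, adjusted p = 0.000233). *#17* was above all Col-0 libraries at 37 DAS, with 12.2, 16 and 9.65 CPM (1.20, SE 0.29, adjusted p = 0.00899), and *#25* overlapped Col-0, with 6.03, 7.93 and 5.17 (0.19, SE 0.28, adjusted p = 0.697). At 44 DAS the means were in the opposite order, 26 ± 3.92 CPM in *#17* and 34.8 ± 5.75 in *#25*, and only the *#25* difference from Col-0 passed (1.10, SE 0.28, adjusted p = 0.00859, against 0.66, SE 0.28, adjusted p = 0.0816). The direct test between the lines gave -1.01 (SE 0.28, adjusted p = 0.053) at 37 DAS and 0.45 (SE 0.28, adjusted p = 0.743) at 44 DAS, so a difference between them was not shown by this test. The first of these passed under DESeq2, with library size alone, in 1 fit of all 39 libraries and without *#17* replicate 3.

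*WRKY75*, which promotes senescence and activates the salicylate gene *ICS1*, had the widest range of the 10. Its group means ran from 0.901 CPM in *slim1-cr* at 37 DAS to 30.1 in *#25* at 44 DAS. At 37 DAS Col-0 had 2.47, 5.17 and 2.8 CPM, *slim1-cr* 1.01, 1.05 and 0.641, *#17* 5.3, 9.39 and 7.27 and *#25* 5.99, 10.2 and 7.41. The 3 genotypes lay apart from Col-0 in both directions, with log2FC of -1.96 (SE 0.36, adjusted p = 0.0222), 1.07 (SE 0.33, adjusted p = 0.0283) and 1.16 (SE 0.33, adjusted p = 0.0298). At 44 DAS the order was *slim1-cr* (5.56, 5.19 and 0.814 CPM), Col-0 (10.8, 12.6 and 11.6), *#17* (12.8, 16.6 and 17.4) and *#25* (29.3, 34.2 and 26.9), and no 2 neighbors in this order overlapped. Of these differences from Col-0 only that of *#25* passed (1.41, SE 0.45, adjusted p = 0.0253), and *slim1-cr* had a log2FC of -1.58 (SE 0.47, adjusted p = 0.053).

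Every one of these *WRKY75* calls was lost in some fits that left out 1 library. In *slim1-cr* at 37 DAS, 1124 genes were called in all, and 29, 34 and 27 without Col-0 replicate 2, *slim1-cr* replicate 1 or 3. The *WRKY75* call there was lost in the same fits, at log2FC of -1.55, -2.04 and -1.77. In the overexpressors at 37 DAS it was lost without Col-0 replicate 1 or 3 in both lines, without *#17* replicate 2 and without *#25* replicate 2 or 3 (0.85 to 0.94 in *#17* and 0.92 to 1.20 in *#25*), and also in 1 fit of all 39 libraries. At 44 DAS the *#25* call was lost without any 1 Col-0 library or without *#25* replicate 2 (adjusted p 0.0533 to 0.0755). From 37 to 44 DAS *WRKY75* rose in Col-0 by 1.75 (SE 0.48, adjusted p = 0.00354), in the mutant by 2.09 (SE 0.53, adjusted p = 0.00232) and in the line *#25* by 1.94 (SE 0.47, adjusted p = 0.000765), each kept with any 1 library left out, although in *slim1-cr* not in a fit of the 2 groups alone.

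*WRKY55*, which promotes senescence and salicylate production, was the rarest member, at 0.466 to 9.25 CPM. It stayed near 1 CPM in Col-0 at all ages (group means 1.11, 1.12 and 1.01). In *#25* at 37 DAS it had 2.07, 3.01 and 2.69 CPM, above all Col-0 libraries (1.21, 1.11 and 1.04), with a log2FC of 1.19 (SE 0.27, adjusted p = 0.0103), a call lost in 1 fit of all 39 libraries. Against *#17* (1.27, 1.66 and 0.776 CPM) it was 1.04 (SE 0.27, adjusted p = 0.0423), lost without *#17* replicate 1 or any 1 *#25* library (0.91 to 1.18). At 44 DAS the called difference of 2.11 (SE 0.69, adjusted p = 0.0281) in *#25* rested on replicate 1, at 9.25 CPM beside 1.13 and 2.34 in the others. Without it the log2FC was 0.82 (adjusted p = 0.203), and the call was also lost without any 1 Col-0 library (1.91 to 2.23). The *#17* libraries of 44 DAS, at 1.9 to 4.65 CPM, lay above every Col-0 library (0.725 to 1.17). Their difference from Col-0 did not pass with edgeR and was called by DESeq2.

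*WRKY54* and *WRKY70*, close relatives that delay senescence and take part in salicylate signaling, had their lowest Col-0 values at 44 DAS. In Col-0 *WRKY54* stood at 46.6, 68.7 and 55.1 CPM, then 74.7, 64.4 and 53.1, then 20.5, 31.6 and 18.2. *WRKY70* stood at 132, 197 and 160 CPM, then 220, 143 and 132, then 91.9, 85.2 and 65.4. The change from 37 to 44 DAS was called for *WRKY54* (log2FC -1.45, SE 0.47, adjusted p = 0.0111, or 0.0519 without Col-0 44 DAS replicate 3) and not for *WRKY70* (-1.03, SE 0.45, adjusted p = 0.0576).

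In *slim1-cr* at 37 DAS both were low. *WRKY54* had 11, 25.9 and 4.51 CPM and *WRKY70* had 31.9, 69.1 and 16.4, below every Col-0 library, with log2FC of -2.22 (SE 0.49, adjusted p = 0.0334) and -2.08 (SE 0.43, adjusted p = 0.0266). Replicate 3 was the lowest in both. It was low at 30 DAS too, with 10.7 CPM of *WRKY54* beside 54 and 57.5 in the other 2 replicates and 32.5 CPM of *WRKY70* beside 160 and 174. Without *slim1-cr* replicate 3 the values at 37 DAS were -1.80 (adjusted p = 0.0766) and -1.71 (adjusted p = 0.074), and both calls were also lost without *slim1-cr* replicate 1 (-2.08 and -1.95) or Col-0 replicate 2 (-2.21 and -2.17), that of *WRKY54* also without Col-0 replicate 3 (-2.34).

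The overexpressors again parted at 37 DAS. *#25* had more *WRKY70* than any other group, with 251, 296 and 341 CPM, and *#17* had 79, 91.6 and 102. Col-0 lay between them and overlapped neither. The difference between the lines was 1.68 (SE 0.42, adjusted p = 0.0376), while neither line passed against Col-0 (*#25* at 0.82, SE 0.41, adjusted p = 0.186, and *#17* at -0.85, SE 0.41, adjusted p = 0.125). The call between the lines was lost without any 1 of the *#25* libraries or *#17* replicate 1 or 2 (1.57 to 1.79). *WRKY54* had 40.7, 47.5 and 49.4 CPM in *#25* and 13.6, 23.6 and 24.3 in *#17*, both below all Col-0 libraries, and was called in *#17* only (-1.64, SE 0.48, adjusted p = 0.0223, and lost without Col-0 replicate 1 or *#17* replicate 1 or 2 at -1.42 to -1.77). In the other line it was -0.50 (SE 0.47, adjusted p = 0.499), and the test between the lines did not pass (1.14, SE 0.47, adjusted p = 0.144).

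From 37 to 44 DAS *WRKY70* fell in *#25* to 75.5, 24.6 and 30.6 CPM (log2FC -2.76, SE 0.48, adjusted p = 1.21e-05), and *WRKY54* to 17.4, 5.46 and 10.4 (-2.05, SE 0.48, adjusted p = 0.000506). For *WRKY70* this change differed from that of Col-0 by -1.73 (SE 0.64, adjusted p = 0.0274), a call lost without Col-0 37 DAS replicate 2 or 3, *#25* 37 DAS replicate 3, Col-0 44 DAS replicate 1 or *#25* 44 DAS replicate 2 or 3 (-1.37 to -1.64). For *WRKY54* it was -0.60 (SE 0.66, adjusted p = 0.478). Against Col-0 of 44 DAS, *WRKY54* was lower in *#17*, at 5.68, 12.8 and 10 CPM (-1.29, SE 0.41, adjusted p = 0.0295), a call lost without Col-0 replicate 2 or *#17* replicate 1 or 3 (adjusted p 0.0666 to 0.102), and in *#25* the test gave -1.05 (SE 0.41, adjusted p = 0.0569).

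*WRKY57*, a repressor of jasmonate-induced senescence that binds the JAZ4, JAZ8 and IAA29 proteins, was nearly flat in Col-0, with group means of 10.3 ± 1.6, 12 ± 2.29 and 12.6 ± 1.92 CPM (SD, n = 3). At 44 DAS both overexpressors lay above Col-0 and *slim1-cr* below it. Col-0 had 11.9, 11.2 and 14.8 CPM, *#17* 21.9, 19 and 21.9, *#25* 19.5, 20 and 22.1 and *slim1-cr* 8.27, 8.94 and 6.05. The log2FC was 0.74 in both lines (SE 0.15, adjusted p = 0.00255 in *#17* and 0.00217 in *#25*), kept with any 1 library left out. In *slim1-cr* it was -0.68 (SE 0.15, adjusted p = 0.0359), a call lost without Col-0 replicate 2 or 3 or *slim1-cr* replicate 1 or 3 (-0.76 to -0.54).

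**Figure D2:**
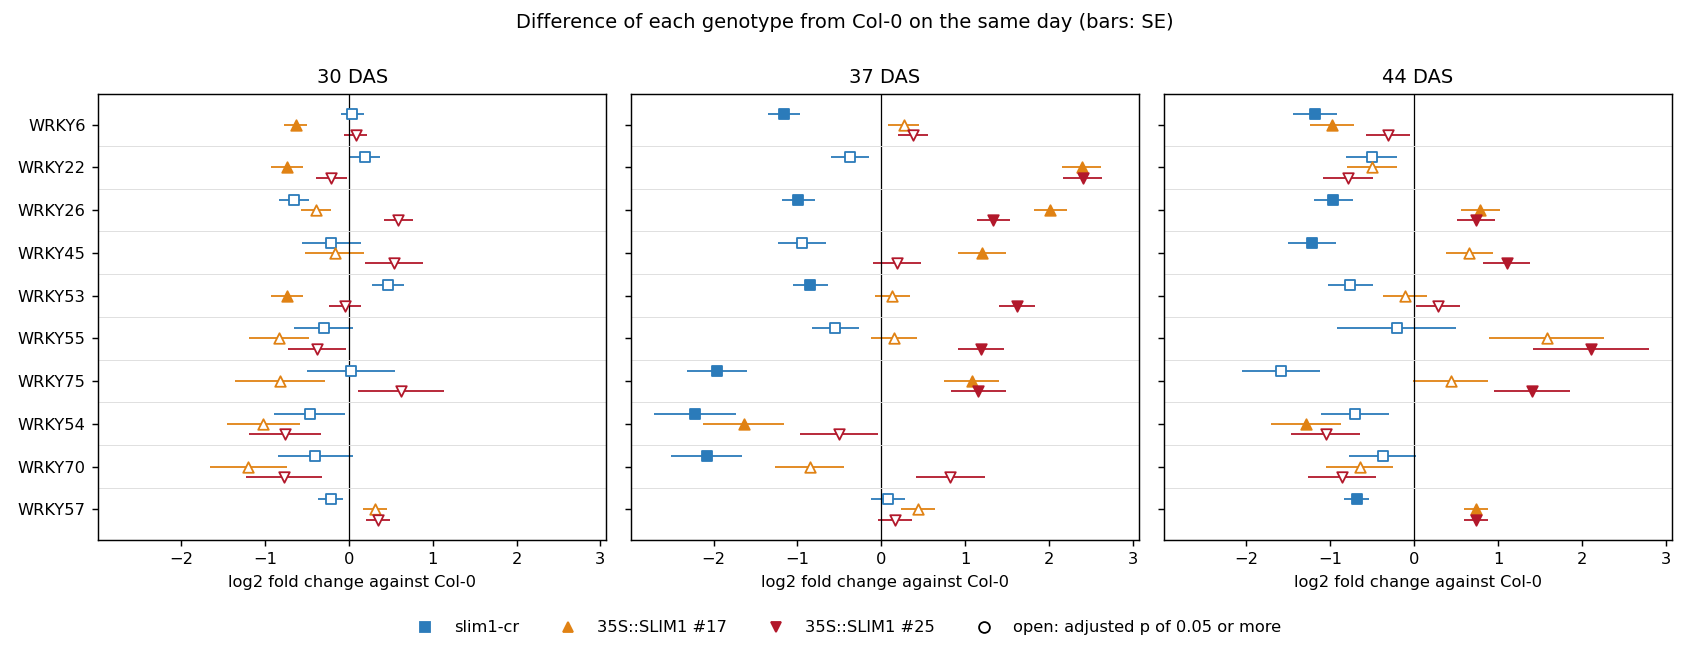
Log2 fold change against Col-0 of the same day (x axis) for each WRKY gene (y axis) in *slim1-cr*, *#17* and *#25* at 30, 37 and 44 DAS. Bars are the SE from the edgeR fit, filled symbols have an adjusted p below 0.05. At 37 DAS the 6 called values of *slim1-cr* are all negative, while *WRKY22* is at 2.39 and 2.40 in the overexpressors.

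Counted by comparison, 30 DAS had fewer calls against Col-0 than the later days. *EV* had 0 members called by edgeR (0% of 20274 genes) and 0 by DESeq2, which called 82 genes in all. At an unadjusted p below 0.05 *EV* had 0 members as well. For such unadjusted counts, here and below, the share of all genes was not counted, so they have no background to be set against. *slim1-cr* had 0 called by edgeR (4.75% of all genes), 2 at an unadjusted p below 0.05 and 1 by DESeq2 (*WRKY26*, with 1947 genes in all). *#25* likewise had 0 (6.38% of all genes), 2 and 1 (with 2210 genes in all by DESeq2). That 1 was again *WRKY26*, but higher than in Col-0 (log2FC 0.59, SE 0.17, adjusted p = 0.0605 by edgeR). In *#17* 3 members were lower (6.95% of all genes), 8 had an unadjusted p below 0.05 and the median log2FC over the 10 was -0.73 (0.00 over all genes). The 3 were called by edgeR and by DESeq2, with edgeR log2FC of -0.63 (SE 0.14, adjusted p = 0.0189) for *WRKY6*, -0.73 (SE 0.19, adjusted p = 0.0342) for *WRKY22* and -0.73 (SE 0.19, adjusted p = 0.0364) for *WRKY53*.

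For these 3 genes every *#17* library was below every Col-0 library, as with 9.18, 8.16 and 9.04 CPM of *WRKY6* beside 12.7, 15.6 and 12.7. The same held for *WRKY26*, *WRKY54*, *WRKY55*, *WRKY70* and *WRKY75*, which were not called, and the share of all genes that separate so was not counted. All 3 calls were lost without *#17* replicate 1 or 2 or Col-0 replicate 2, and in 1 fit of all 39 libraries. *WRKY53* was lost also without Col-0 replicate 1, and *WRKY22* without Col-0 replicate 3 or *#17* replicate 3 (log2FC over all these -0.51 to -0.77). Against *#17*, *#25* had more *WRKY6* (0.71, SE 0.14, adjusted p = 0.0252) and *WRKY26* (0.98, SE 0.18, adjusted p = 0.0194), 2 calls of 10 where 1.69% of all genes were called, both lost without replicate 1 or 2 of either line (0.64 to 0.75 and 0.88 to 1.00).

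At 37 DAS the members called were 6 of 10 in *slim1-cr*, all lower, where 5.54% of 20296 genes were called. They were *WRKY6*, *WRKY26*, *WRKY53*, *WRKY54*, *WRKY70* and *WRKY75*, with a median log2FC over the 10 of -0.97 (-0.01 over all genes). They hold regulators of both kinds, those that promote and those that delay senescence. In *#17* 4 were higher and 1 lower (36.8% of all genes called), in *#25* 5 were higher (22.3%), and between the lines 3 were higher in *#25* (8.25%), *WRKY53*, *WRKY55* and *WRKY70*. At 44 DAS *slim1-cr* had 4 lower (10.2% of 20499 genes), *#17* 2 higher and 2 lower (40.4%) and *#25* 5 higher (46.1%). Of the 5 photosynthesis genes, 4 were lower in *#17* and 5 in *#25* at that age (median log2FC -1.49 and -2.28), and their part in the WRKY differences was not tested. Between the lines 0 were called at 44 DAS by edgeR (0.00976% of all genes) and 0 by DESeq2 (120 genes in all), with 1 at an unadjusted p below 0.05.

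The *slim1-cr* counts depended on how the spread was estimated. DESeq2 called 7 of 10 at 37 DAS and 6 at 44 DAS, where all genes gave 2840 and 4944 calls. In a fit of *slim1-cr* and Col-0 alone, 0 of 10 were called at 37 DAS and 0 at 44 DAS, where all genes gave 31 and 12 calls. With 1 library left out, the count at 37 DAS ranged from 0 to 6, and that over all genes from 27 to 1762. The calls of *WRKY6* were lost without *slim1-cr* replicate 1 or 3 (-1.21 and -1.15), those of *WRKY26* and *WRKY53* without these or Col-0 replicate 2 (-0.79 to -1.08 and -0.67 to -0.92), and that of *WRKY53* also without Col-0 replicate 1 (-0.82). At 44 DAS it ranged from 0 to 6 as well (17 to 6257 over all genes), and the calls were lost without Col-0 replicate 2 or 3 or *slim1-cr* replicate 1 (all 4 genes) or *slim1-cr* replicate 3 (*WRKY26* at -0.73, *WRKY45* at -0.90 and *WRKY57* at -0.54).

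**Figure D3:**
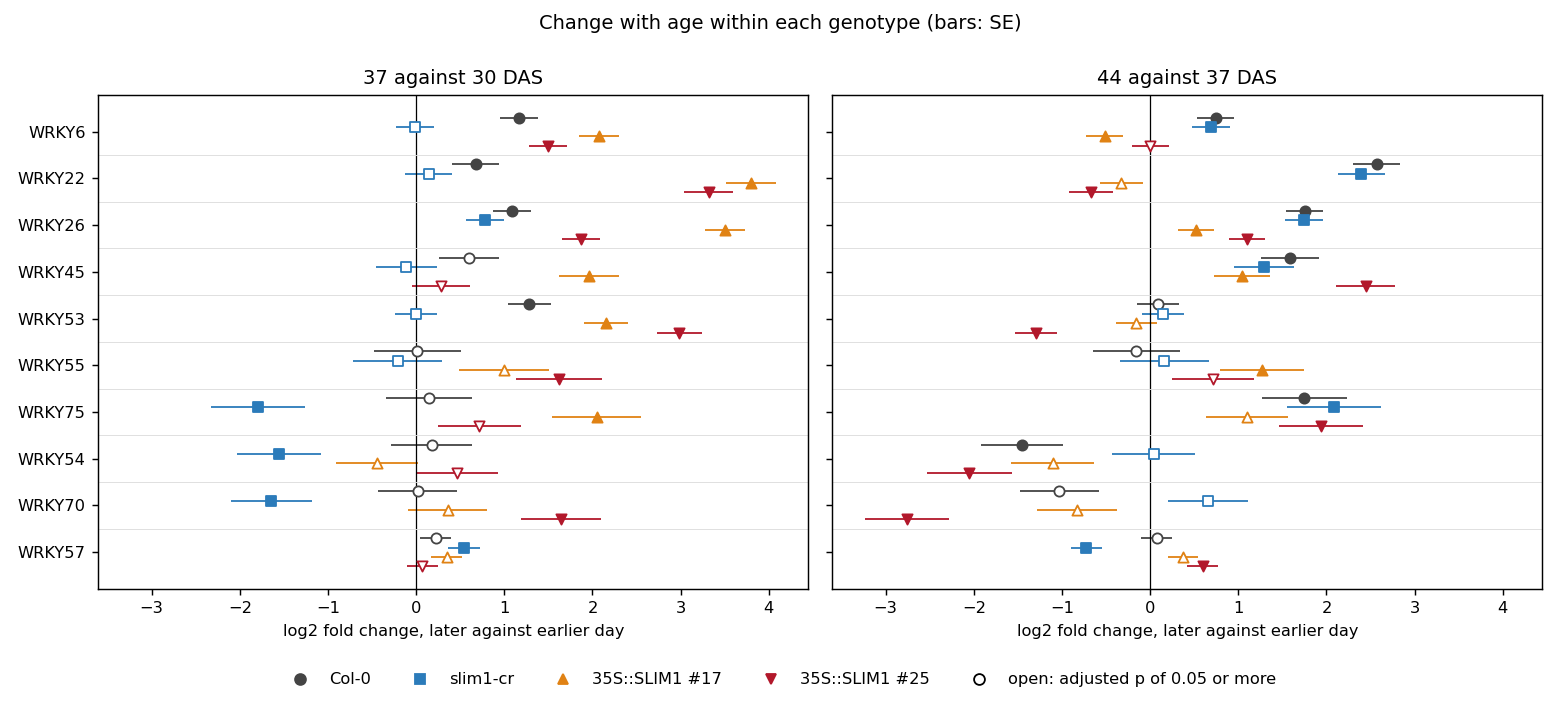
Log2 fold change between 2 ages (x axis, later against earlier) for each WRKY gene (y axis) within Col-0, *slim1-cr*, *#17* and *#25*. Bars are the SE, filled symbols have an adjusted p below 0.05. From 30 to 37 DAS *WRKY22* rose by 3.80 in *#17* and 3.32 in *#25*, and *WRKY26* by 3.50 in *#17*, while in Col-0 and *slim1-cr* the larger step of both genes came from 37 to 44 DAS.

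Read by age within each genotype, the first week changed 6 members in *#17*, all upward (60.4% of all genes called), and 6 in *#25*, all upward (32.9%). In *slim1-cr* 2 rose and 3 fell in that week (13.6%). *WRKY26* (log2FC 0.78, SE 0.22, adjusted p = 0.0175) and *WRKY57* (0.54, SE 0.18, adjusted p = 0.0386) rose, and *WRKY54* (-1.56, SE 0.47, adjusted p = 0.0276), *WRKY70* (-1.64, SE 0.46, adjusted p = 0.0169) and *WRKY75* (-1.80, SE 0.53, adjusted p = 0.0237) fell. All 5 were lost in a fit of the 2 groups alone, and the last 3 without *slim1-cr* replicate 1 or 2 at 30 DAS or replicate 1 or 3 at 37 DAS (-1.15 to -1.42, -1.28 to -1.52 and -1.38 to -1.88). The call of *WRKY57* was lost without any 1 of the same 4 libraries (0.31 to 0.55), and that of *WRKY26* without replicate 2 or 3 at 30 DAS or 3 at 37 DAS (0.63 to 0.75).

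In the second week 5 members, *WRKY6*, *WRKY22*, *WRKY26*, *WRKY45* and *WRKY75*, rose in both Col-0 and *slim1-cr* (41.6% of all genes called in *slim1-cr*). In Col-0 *WRKY22* rose by 2.57 (SE 0.26, adjusted p = 1.15e-08) and in the mutant by 2.40 (SE 0.26, adjusted p = 4.39e-08), *WRKY26* by 1.75 in both (SE 0.21 and 0.22, adjusted p = 1.48e-07 and 2.71e-07). *WRKY57* fell in *slim1-cr* (-0.72, SE 0.18, adjusted p = 0.0016). In *#17* 3 rose and 1 fell (46.9%), and in *#25* 4 rose and 4 fell (65.8%). The 4 that fell in *#25* were *WRKY22*, *WRKY53*, *WRKY54* and *WRKY70*, and the 4 that rose were *WRKY26*, *WRKY45*, *WRKY57* and *WRKY75*, *WRKY45* by 2.45 (SE 0.34, adjusted p = 3.89e-07). Calls of the smallest steps were lost in some fits with 1 library left out. The rise of *WRKY6* in *slim1-cr* (0.69) was lost without replicate 1 or 2 at 44 DAS. The fall of *WRKY22* in *#25* (-0.67) was lost without replicate 3 at 37 DAS or 1 or 2 at 44 DAS. In *#17* the fall of *WRKY6* (-0.52) was lost without replicate 1 or 3 at 37 DAS or any 1 library of 44 DAS. The rise of *WRKY55* there (1.27) was lost without replicate 1 or 3 at 37 DAS or 2 at 44 DAS, that of *WRKY26* (0.52) without replicate 3 at 37 DAS or 1 at 44 DAS and that of *WRKY45* (1.04) without replicate 3 at 37 DAS. In the first week the rise of *WRKY55* in *#25* (1.62) was lost without replicate 3 at 30 DAS.

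Whether a genotype differed from Col-0 by another amount at one age than at the next was tested in the fit of all 13 groups. For *slim1-cr* 0 members passed from 30 to 37 DAS (0.0665% of all genes), with 5 at an unadjusted p below 0.05 and 2 by DESeq2 (*WRKY6* and *WRKY53*, with 382 genes in all). From 37 to 44 DAS 0 passed (0.0143%), with 3 at an unadjusted p below 0.05 and 0 by DESeq2 (37 genes in all). Without *slim1-cr* replicate 3 at 30 DAS, 1171 genes passed in the first interval in place of 14, and 5 members were among them: *WRKY6* (-1.26), *WRKY53* (-1.48), *WRKY54* (-2.19), *WRKY70* (-2.11) and *WRKY75* (-2.40). For *#17* 5 passed in the first interval, all upward (24.5%), and 3 in the second, all downward (33.3%). For *#25* the numbers were 2 upward (14.8%) and 4 downward (45.1%).

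Markers of other responses moved with several members. *WRKY54* and *WRKY70* varied with a list of 10 salicylate response genes, such as *PR1*, *PR2* and *PBS3*. Over the 13 group means, Pearson r with the mean log2(CPM + 0.5) of the list was 0.90 for *WRKY54* and 0.92 for *WRKY70*, and within groups, after subtraction of group means over the 39 libraries, 0.82 and 0.88. Groups share age and genotype, and the libraries their depth and harvest, so these are descriptions. In *slim1-cr* at 37 DAS 7 of the 10 list genes were lower than in Col-0 (5.54% of all genes called), with a median log2FC of -2.02. *PR1* was among them (-3.04, SE 0.69, adjusted p = 0.0355). From 37 to 44 DAS 7 of 10 fell in *#25* (median -2.07), where 65.8% of all genes were called, up or down.

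*WRKY6*, *WRKY22*, *WRKY26* and *WRKY53* varied with a list of 13 touch and wound genes, such as *TCH4*, *ERF6*, *SZF1* and *CML38*. Pearson r over group means was 0.90, 0.95, 0.93 and 0.89, and within groups 0.57, 0.80, 0.69 and 0.39. *WRKY45*, *WRKY75* and *WRKY55* had 0.81, 0.79 and 0.79 over group means and 0.65, 0.69 and 0.18 within groups. With the salicylate list, *WRKY53*, *WRKY55* and *WRKY75* had 0.17, 0.01 and 0.03 over group means but 0.66, 0.64 and 0.66 within groups. Single libraries stood apart in both, such as *slim1-cr* replicate 3 at 44 DAS. It had 0.814 CPM of *WRKY75* beside 5.19 and 5.56, and a salicylate list level of 2.72 beside 4.10 and 4.44. The part of such libraries in r was not tested. The touch and wound list stood at 3.65 to 4.87 on the log2 scale in the libraries of 30 DAS. At 37 DAS it was at 4.12 to 4.83 in *slim1-cr*, 4.74 to 5.69 in Col-0, 6.41 to 7.05 in *#17* and 7.45 to 7.97 in *#25*. At 44 DAS it was at 5.13 to 6.56 in *slim1-cr*, 6.63 to 6.91 in Col-0, 6.73 to 7.47 in *#17* and 6.94 to 7.20 in *#25*. Of the 13 genes, 10 were higher than in Col-0 at 37 DAS in each overexpressor (36.8% of all genes called in *#17* and 22.3% in *#25*). *TCH4* was at 4.37 (SE 0.51, adjusted p = 0.000224) and *ERF6* at 4.07 (SE 0.25, adjusted p = 5.41e-06) in *#25*. Between the lines 7 were higher in *#25* (8.25% of all genes called). Stalks, where present, were cut before harvest, and bolting was earlier in the overexpressors. The part of stage, cutting and handling in these WRKY levels was not tested.

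**Figure D4:**
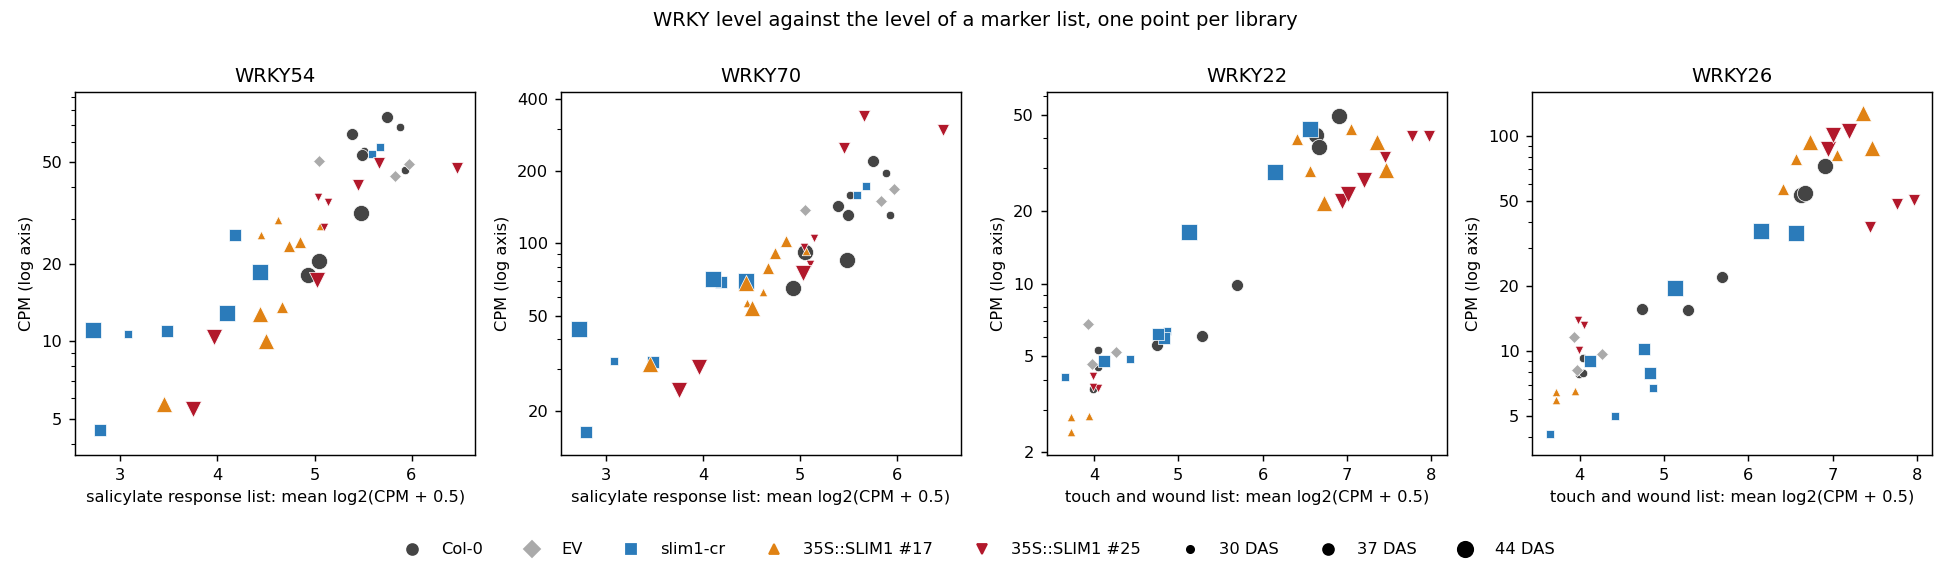
CPM (log axis) of *WRKY54* and *WRKY70* against the level of the salicylate response list, and of *WRKY22* and *WRKY26* against that of the touch and wound list (x axes, mean log2(CPM + 0.5)). Each point is 1 of 39 libraries, color and shape give genotype and point size the age. The lowest 3 libraries of *WRKY54* and of *WRKY70* are *slim1-cr* or overexpressor libraries with list levels under 4, and *WRKY22* is above 10 CPM only in libraries with touch list levels over 5.

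A list of 20 genes around these factors held known partners, regulators and targets. In *slim1-cr* at 37 DAS 5 of 20 were lower (5.54% of all genes called), with a median log2FC of -0.39. In *#17* 6 were higher and 4 lower (36.8% of all genes called), while *#25* had 7 above and 2 below Col-0 (22.3%). *FRK1*, a receptor kinase gene that *WRKY6* activates, was lower than in Col-0 at 37 DAS in all 3 genotypes, at 11.9 ± 6.19 CPM in *slim1-cr*, 10.4 ± 4.82 in *#17* and 16.8 ± 2.76 in *#25*, beside 46.2 ± 21.4 in Col-0 (SD, n = 3). Its log2FC was -1.97 (SE 0.45, adjusted p = 0.0367), -2.15 (SE 0.46, adjusted p = 0.00502) and -1.48 (SE 0.44, adjusted p = 0.0356), while *WRKY6* was called lower in *slim1-cr* and did not pass in either line.

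*IAA29*, an Aux/IAA repressor that binds *WRKY57* protein, was higher at 37 DAS in both overexpressors, at 6.39 ± 1.53 CPM in *#17* and 9.49 ± 4.48 in *#25* beside 1.59 ± 0.481 in Col-0 (log2FC 2.00, SE 0.35, adjusted p = 0.00178, and 2.55, SE 0.35, adjusted p = 0.000586). *SAG13*, a senescence marker that *WRKY55* activates, was at 277 ± 60.1 CPM in *#25* at 44 DAS beside 64.6 ± 27.4 in Col-0 (2.14, SE 0.54, adjusted p = 0.00861). *SAG12*, the marker of late senescence, differed widely between replicates, from 371 to 847 CPM in *#25* and from 0.263 to 24.8 in Col-0 at 44 DAS (5.89, SE 2.01, adjusted p = 0.034).

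The rest of the family was counted for comparison. The reference gene table names 57 other WRKY genes in the count table, of which 46 to 48 passed the filter on low counts. At 37 DAS 12 of the 46 tested were lower and 1 was higher in *slim1-cr* (median log2FC -0.40, with 5.54% of all genes called). In *#17* 11 were higher and 11 lower (0.13, with 36.8% of all genes called), and *#25* had 11 above and 6 below Col-0 (-0.14, with 22.3%). At 44 DAS *slim1-cr* had 14 lower and 0 higher, with a median of -0.72 (10.2% of all genes called). Among them *WRKY33* was higher in *#25* at 37 DAS (2.69, SE 0.24, adjusted p = 3.9e-05), and in *#17* *WRKY18* (2.54, SE 0.42, adjusted p = 0.00139) and *WRKY61* (2.55, SE 0.61, adjusted p = 0.00906), while *WRKY62* was lower in *slim1-cr* (-2.45, SE 0.49, adjusted p = 0.0252).

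Among the members themselves, the closest pairs over the 13 group means were *WRKY26* with *WRKY45* and *WRKY45* with *WRKY75* (Pearson r 0.94 each), *WRKY22* with *WRKY26* (0.91) and *WRKY54* with *WRKY70* (0.90). Within groups, over 39 libraries, *WRKY54* and *WRKY70* stood closest, at 0.93. Among 7909 other genes with a symbol and a mean log2 CPM above 1, the pattern most like that of *WRKY22* was that of *WRKY15* (0.993, 13 groups), and those most like *WRKY26* were *RPS4* (0.993) and *ILL2* (0.992). *WRKY53* was closest to the zinc finger gene *CZF1* (0.974), *WRKY54* to *NUDT6* (0.974), *WRKY70* to the chaperone genes *ATERDJ3B* and *BIP3* (0.944 each), *WRKY75* to *CYP710A1* (0.983) and *AOX1D* (0.980), and *WRKY57* to *APC2* (0.948). These are the highest among the correlations with all genes searched and are given with no test.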

How the data were processed

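The authors deposited raw counts of reads per gene for 33110 genes in 39 libraries. Per the study's methods, reads of strand-specific paired-end libraries were cleaned with SOAPnuke and counted with CLC Genomics on TAIR10 with the Araport11 annotation. A normalized table of the same libraries and the study's own DESeq2 comparisons were not used here. Every count column was matched to a sample by its title (0 columns were left out). Members and gene lists were chosen with earlier results of these data known.

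Genes were filtered with filterByExpr, scaled with TMM and tested with the quasi-likelihood F test of edgeR 4.0.16 (R 4.3.3). Comparisons within a day used 1 fit per day (20274, 20296 and 20499 genes), and comparisons between ages used 1 fit of all 39 libraries (21040 genes), 27 comparisons in all. P-values were adjusted over all genes of a comparison by Benjamini-Hochberg. The SE is the log2FC divided by the square root of F. CPM used the TMM factors of all libraries, and list levels are means of log2(CPM + 0.5). Totals of 38.4 to 46.2 M counts per library limit the precision of rare genes only through counting error. The closest pair of replicates still differed by a chi-square of 8.55 per gene, so no library was counted as a repeat.

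All 10 members are named. From each list at most 4 genes are named, those called against Col-0 with the largest log2FC, and the genes most like a member in pattern are the highest correlations over group means. Alternatives were DESeq2 1.42.0, its size factors, library size alone, no filter, a minimum of 10 counts in 3 libraries, a replicate block, only the 2 groups, all 39 libraries in 1 fit, *EV* as control and leaving out each library of the compared groups. Sequences were read from RefSeq TAIR10.1 with its annotation, which matched 10 of 10 members. Figures were drawn with matplotlib 3.10.9.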

Additional observations from a re-analysis of the deposited data

Results flagged for a closer look

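Direct tests between the overexpressors passed for 5 results, *#25* being the higher line in each. At 30 DAS these were *WRKY6* (log2FC 0.71) and *WRKY26* (0.98), and at 37 DAS *WRKY53* (1.49), *WRKY55* (1.04) and *WRKY70* (1.68), with edgeR adjusted p from 0.00524 to 0.0423. The difference of *WRKY53* held in 6 of 6 fits that left out 1 library, and the other 4 were each lost in 4 or 5 of 6. In the other direction at 37 DAS, *WRKY26* and *WRKY45* did not pass by edgeR but passed by DESeq2. Without *#17* replicate 3, edgeR called both lower in *#25* (-0.84 and -1.18). That fit called 5364 genes in all, beside 1674 with every library.

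The difference of *#17* from Col-0 changed from 30 to 37 DAS for *WRKY22* (3.12), *WRKY26* (2.41), *WRKY75* (1.90), *WRKY45* (1.37) and *WRKY6* (0.91). *WRKY22* and *WRKY26* held in 12 of 12 fits that left out 1 library. *WRKY75* was lost in 10 (1.68 to 2.02), all except those without *#17* replicate 1 at 37 DAS or Col-0 replicate 2 at 37 DAS. *WRKY45* was lost in 8 (1.16 to 1.39), without Col-0 replicate 2 or 3 at 30 DAS, Col-0 replicate 1 or 3 at 37 DAS, *#17* replicate 2 or 3 at 30 DAS or *#17* replicate 1 or 2 at 37 DAS. *WRKY6* was lost in 6 (0.77 to 0.92), without Col-0 replicate 2 or *#17* replicate 1 or 2 at 30 DAS, or Col-0 replicate 1 or 3 or *#17* replicate 3 at 37 DAS. From 37 to 44 DAS the difference of *#17* changed for *WRKY22* (-2.89), *WRKY6* (-1.26) and *WRKY26* (-1.23), each held in 12 of 12.

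The difference of *#25* from Col-0 changed from 30 to 37 DAS for *WRKY22* (2.64) and *WRKY53* (1.70), both held in 12 of 12. From 37 to 44 DAS it changed for *WRKY22* (-3.24) and *WRKY53* (-1.38), also held in 12 of 12, for *WRKY70* (-1.73, lost in 6) and for *WRKY6* (-0.74, lost in 8). *WRKY6* was lost without Col-0 replicate 1 or 3 or *#25* replicate 2 or 3 at 37 DAS, or Col-0 replicate 1 or 2 or *#25* replicate 1 or 2 at 44 DAS (-0.62 to -0.78). Groups of 3 samples are too small for a test of single outlying samples, and none was made.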

How the results depend on the processing

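Over the 27 comparisons, 96 calls of members were made. Of these 52 held in every fit that left out 1 library, and 48 also held under every other setting. No log2FC called in the main analysis changed its sign. In total, DESeq2 made 112 calls (95 shared with the 96), its size factors 93 (93), library size alone 103 (91), no filter 92 (92), 10 counts in 3 libraries 96 (96) and a replicate block 93 (90). Same-numbered replicates did not deviate together (0 of 22 pairs of groups had all 3 correlations above 0.1, and they ranged from -0.6 to 0.5), and under the block *slim1-cr* at 44 DAS had 2 calls in place of 4.

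DESeq2 called 1 member in *slim1-cr* and 1 in *#25* at 30 DAS (0 by edgeR), 5 between the lines at 37 DAS (3 by edgeR) and 2 in the difference of *slim1-cr* from Col-0 between 30 and 37 DAS (0 by edgeR). Over all genes the same results gave 1947, 2210, 3444 and 382 calls (963, 1293, 1674 and 14 by edgeR). DESeq2 called 7 members in *slim1-cr* at 37 DAS and 6 at 44 DAS (6 and 4 by edgeR), with 2840 and 4944 over all genes (1124 and 2087 by edgeR). Library size alone gave 1, 1 and 2 for the 3 results with 0 by edgeR (1243, 1379 and 403 over all genes). With *EV* as control at 30 DAS, *slim1-cr* had 1 (1072 over all genes), *#17* 5 (2487) and *#25* 1 (1119). In 1 fit of all 39 libraries, *#17* at 30 DAS had 0 (3 in the fit of the day), *#25* against *#17* at 30 DAS 1 (2) and *#25* at 37 DAS 3 (5). With only the 2 groups in the fit, *#17* at 30 DAS had 6 (3), *#25* at 30 DAS 3 (0), *slim1-cr* 0 at 37 DAS (6) and 0 at 44 DAS (4), *#17* at 44 DAS 7 (4) and *slim1-cr* between ages 0 (5) and then 2 (6). Over all genes, the fit of 39 libraries gave 910 calls in *#17* at 30 DAS (1410 in the fit of the day), and only the 2 groups gave 2025 in *#17* and 2957 in *#25* at 30 DAS, 7466 in *#17* at 44 DAS and 307 and 4916 in *slim1-cr* between ages. The causes were not tested.

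With 1 library left out, calls at 30 DAS ranged from 0 to 1 in *slim1-cr*, 0 to 2 in *#17*, 0 to 1 in *#25* and 0 to 2 between the lines. At 37 DAS they ranged from 0 to 6, 3 to 6, 4 to 6 and 1 to 5, and at 44 DAS from 0 to 6 in *slim1-cr*, 2 to 4 in *#17* and 2 to 6 in *#25*. Between ages, in the first and the second week, they ranged from 3 to 4 and 5 to 6 in Col-0, 0 to 5 and 5 to 7 in *slim1-cr*, 6 to 7 and 0 to 5 in *#17* and 5 to 6 and 7 to 8 in *#25*. For the changes of the difference from Col-0 they ranged from 0 to 5 and 0 to 0 in *slim1-cr*, 2 to 6 and 3 to 3 in *#17* and 2 to 3 and 2 to 5 in *#25*. Calls over all genes moved too, in *slim1-cr* from 48 to 2455, 27 to 1762 and 17 to 6257 at the 3 ages, in *#17* from 357 to 1367 at 30 DAS, in *#25* from 229 to 1236 at 30 DAS, between the lines from 4 to 1053 at 30 DAS and 426 to 5364 at 37 DAS, and in *slim1-cr* from 1145 to 3726 for the first week and 1 to 1171 for the change of its difference from Col-0. Depth limits *WRKY55* most, with 22 counts in its lowest library.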
